A study of Mus musculus with 6 samples.

Results

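Genes of the mitochondrial ribosomal proteins were taken as every row of the deposited count table whose symbol is Mrpl or Mrps followed by a number and at most 1 letter. This gave 78 of the 55453 genes, 49 of the large subunit (Mrpl) and 29 of the small subunit (Mrps). RNA came from mouse aortae, from the descending arch to the renal branches, whose adventitia and endothelium had been removed to leave mostly smooth muscle of the media. The control group, 3 mice, carried 1 floxed copy of Srf (heterozygous floxed Srf), and the knockout group, 2 mice in the table, carried 2 (homozygous floxed Srf). Every mouse also carried Itga8-CreERT2, a tamoxifen-inducible Cre recombinase placed under control of the smooth muscle integrin gene Itga8, and received tamoxifen at 33 mg/kg on 5 days, with the aorta taken 10 days later. The control is thus itself without 1 copy of Srf in recombined cells. The labels list 6 samples, of which homozygous replicate 1 was not analysed here, and the design text says that 1 knockout sample was set aside as an outlier.

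The mitochondrial ribosome sits in the mitochondrial matrix and makes the few proteins that mitochondrial DNA encodes, all of them subunits of the respiratory chain and ATP synthase. Its 2 RNAs, mt-Rnr1 of the small and mt-Rnr2 of the large subunit, are encoded in mitochondrial DNA, while all of its proteins are encoded in the nucleus, made in the cytosol and imported. Some of these proteins descend from bacterial ribosomal proteins, and others are found in mitochondria only. Smooth muscle of the aorta holds fewer mitochondria than brown fat or striated muscle, tissues that lie next to the vessel.

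The 5 libraries held 26177821 to 34311855 counts. CPM below is the count scaled to library size after TMM normalisation, and values are always given for heterozygous replicates 1, 2 and 3 and then, after "against", for homozygous replicates 2 and 3. Srf was at 56.1, 64.4 and 68.3 CPM against 45.0 and 38.6 CPM. Smooth muscle markers (6 genes, Myh11 the most abundant) summed to 22270 to 23710 CPM against 12890 to 13460 CPM, which fits the labelled tissue. In bulk RNA, fewer cells of a type and less RNA per cell cannot be told apart.

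The mitochondrial ribosomal protein genes had slightly higher values in the homozygous libraries, and no single member passed the test. Of the 77 members tested, 65 had a log2 fold change above 0 (84.4%, against 47.2% of all 18192 genes tested) and 12 below 0 (against 52.8%), and the median was 0.16, against -0.02 over all genes. edgeR's quasi-likelihood test called 0 members at an adjusted p under 0.05, as it did for 0.0% of all genes in either direction, and DESeq2 and limma-voom also called 0 members, where DESeq2 called 3.68% of all genes higher and 2.7% lower. At an unadjusted p under 0.05, 7 members were higher and 0 lower, which is 9.09% of the members against 9.04% of all genes for the higher side and 6.75% for the lower. The share of members higher at that level is therefore that of the whole table. With no filter on low counts, edgeR called 1 member higher, Mrpl12, and 3.23% of all genes. The 2 groups did not overlap, with the homozygous libraries higher, in 28 members (36.4%, against 17.4% of all genes), and with the homozygous libraries lower in 2 (2.6%, against 18.2%).

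The single-gene intervals limit the size of change in most members, each taken by itself. The standard error of the log2 fold change ran from 0.085 to 0.368 over the members, with a median of 0.131. For 57 of the 77 members the 95% interval lay inside a 1.5-fold change in both directions. For 19 it reached 1.5-fold higher and for 1 it reached 1.5-fold lower. Only Mrps36 had an estimate beyond 0.5 in either direction, and 58 members were within 0.25 of 0.

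**Figure D1:**
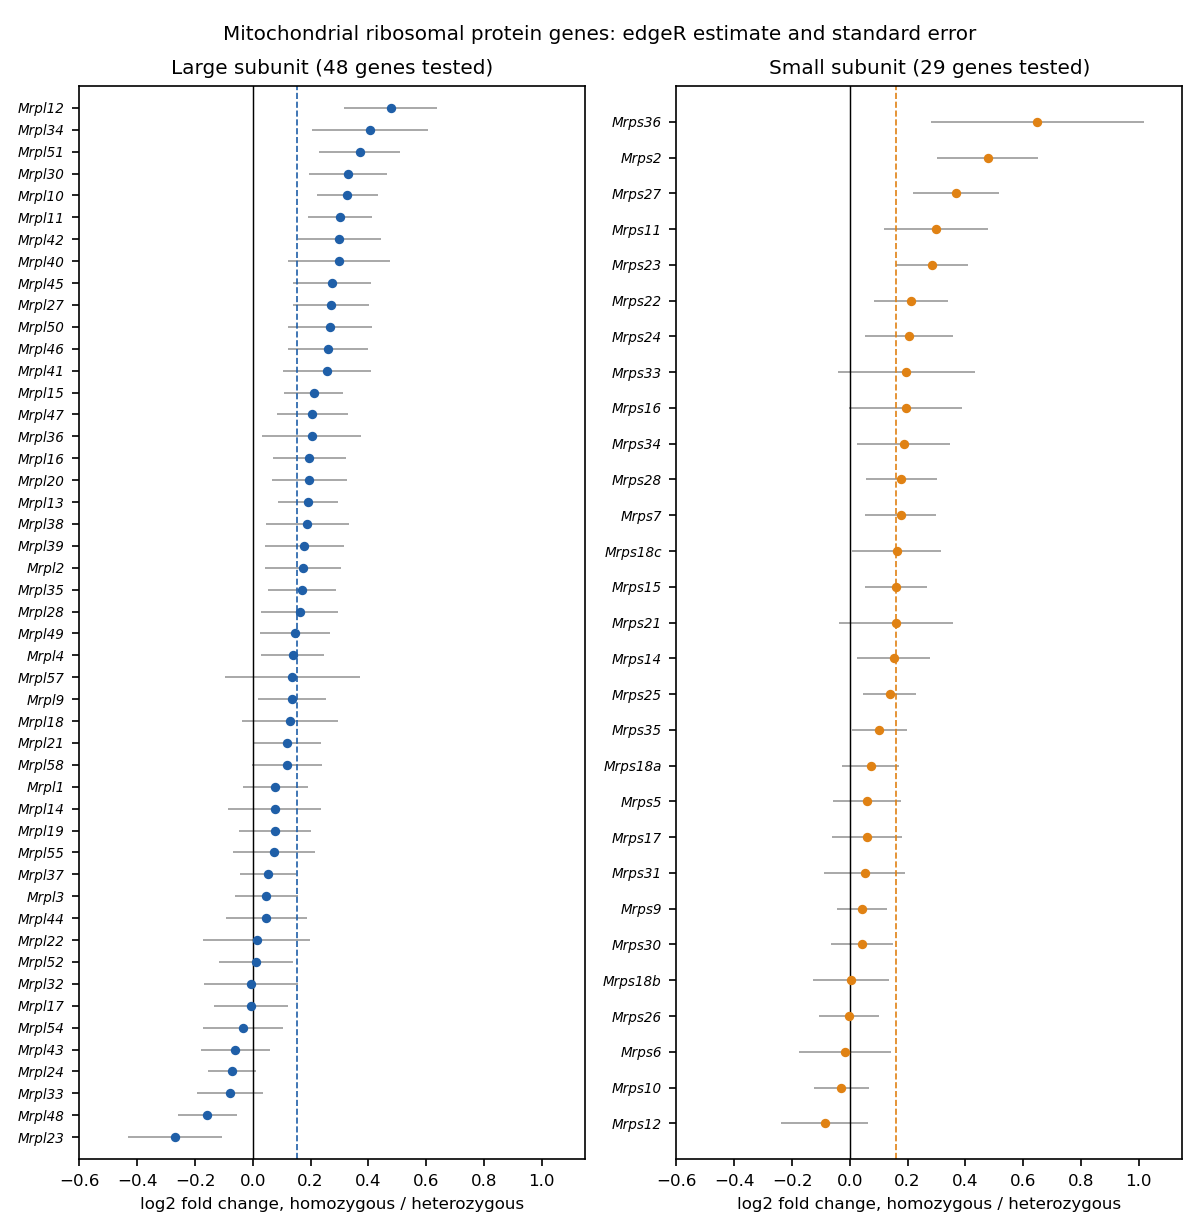
Log2 fold change, homozygous over heterozygous, of the 48 large-subunit and 29 small-subunit genes tested (points), with the standard error of the edgeR fit (bars) and the median of each subunit (dashed line). Most points lie to the right of 0 in both panels, with medians of 0.15 and 0.16.

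The large and the small subunit had nearly the same values. Large-subunit genes had a median log2 fold change of 0.15 (48 tested, 40 above 0, interquartile range 0.05 to 0.26) and small-subunit genes 0.16 (29 tested, 25 above 0, interquartile range 0.05 to 0.20). In each library the mean log2 CPM of the large subunit was set against that of the small one. Large minus small was 0.321, 0.294 and 0.298 in heterozygous replicates 1, 2 and 3 and 0.297 and 0.284 in homozygous replicates 2 and 3. The homozygous values lie within or just below the heterozygous range, and the group means, 0.304 ± 0.014 (SD, n = 3) and 0.290 ± 0.010 (SD, n = 2), differ by -0.014, about the spread between libraries of 0.013. As a ratio of summed CPM, large over small was at 2.01, 1.98 and 1.93 in the heterozygous and 2.00 and 1.98 in the homozygous libraries, and by this measure the log2 difference was 0.013, of the other sign. No p is given for these scores, since they are taken over chosen genes.

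Among large-subunit genes, the proteins of the stalk, the arm of the ribosome that receives translation factors, were among those with the lowest p. Mrpl10 (ENSMUSG00000001445.10, GRCm38 chromosome 11, 97041560 to 97049213), which anchors the stalk, was at 26.6, 28.0 and 23.6 CPM against 33.2 and 32.2 CPM. Every homozygous library was above every heterozygous one. Its log2 fold change was 0.33 (SE 0.105, edgeR adjusted p = 0.213), the lowest adjusted p of any member. Mrpl12 (ENSMUSG00000039640.7, chromosome 11, 120484613 to 120489065), the stalk protein that is also known to bind mitochondrial RNA polymerase, was at 19.0, 23.1 and 15.8 CPM against 25.6 and 28.2 CPM. Its log2 fold change was 0.48 (SE 0.161, edgeR adjusted p = 0.23), the largest among large-subunit genes. Mrpl11, at the base of the stalk, was at 11.4, 11.9 and 10.7 CPM against 13.9 and 14.0 CPM (log2 fold change 0.30, SE 0.111, edgeR adjusted p = 0.263). All 3 had groups that did not overlap, but they are named for their low p, which favours such separation. Over all members 36.4% were separated on the higher side, against 17.4% of all genes. The grouping of these 3 as stalk proteins was noted after their values were seen. Mrpl10 and Mrpl12 share 14.1% and 13.1% of their exon bases with a gene on the other strand.

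Other large-subunit genes with low p had estimates of similar size. Mrpl51, a mitochondria-specific protein, was at 22.5, 27.0 and 19.8 CPM against 28.8 and 31 CPM (log2 fold change 0.37, SE 0.141). Mrpl30 was at 23.9, 28.3 and 21.2 CPM against 29.8 and 31.6 CPM, or 0.33 (SE 0.135). In both genes heterozygous replicate 2 came within 2 CPM of the lower homozygous library. Mrpl42, another mitochondria-specific protein, gave 0.30 (SE 0.143), Mrpl27, which lies near the peptidyl transferase centre in bacterial ribosomes, 0.27 (SE 0.132), and Mrpl15 0.21 (SE 0.103). The edgeR adjusted p of these 5 genes ran from 0.273 to 0.381.

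Of the small subunit, Mrps2 (ENSMUSG00000035772.11, chromosome 2, 28468066 to 28471178) was at 12.2, 15.7 and 10.3 CPM against 18.1 and 17.4 CPM. Its groups did not overlap, and its log2 fold change was 0.48 (SE 0.175, edgeR adjusted p = 0.258). Mrps27, a pentatricopeptide repeat protein known to bind RNA, was at 11.6, 14.2 and 10.5 CPM against 16.3 and 15.0 CPM (log2 fold change 0.37, SE 0.15, edgeR adjusted p = 0.3). A stretch of 24.2% of its annotated exon bases overlaps a gene on the other strand, and no source used here says whether the counting used strand. Mrps23 gave 0.28 (SE 0.124), Mrps22 0.21 (SE 0.129), Mrps25 0.14 (SE 0.0919) and Mrps15 0.16 (SE 0.109), each with groups that did not overlap and an edgeR adjusted p from 0.331 to 0.535. These genes too are named for their low p. In the small subunit 37.9% of members were separated on the higher side, against 17.4% of all genes. Mrps11, head to head with Mrpl46, gave 0.30 (SE 0.179). Mrps25 shares 69.8% of its exon bases with Nr2c2 on the other strand, so its value is uncertain.

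Mrps36 had the largest estimate of all members and the least certain one. It held only 94, 122 and 35 counts in the heterozygous and 133 and 119 counts in the homozygous libraries, or 2.89, 3.62 and 1.39 CPM against 4.70 and 3.66 CPM. The log2 fold change was 0.65 (SE 0.368, edgeR adjusted p = 0.451), with a 95% interval from -0.22 to 1.52. Heterozygous replicate 3 was far below the other libraries, and heterozygous replicate 2 nearly reached homozygous replicate 3. Despite its name, this protein is now known as a component of the 2-oxoglutarate dehydrogenase complex of the citric acid cycle and not of the ribosome.

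**Figure D2:**
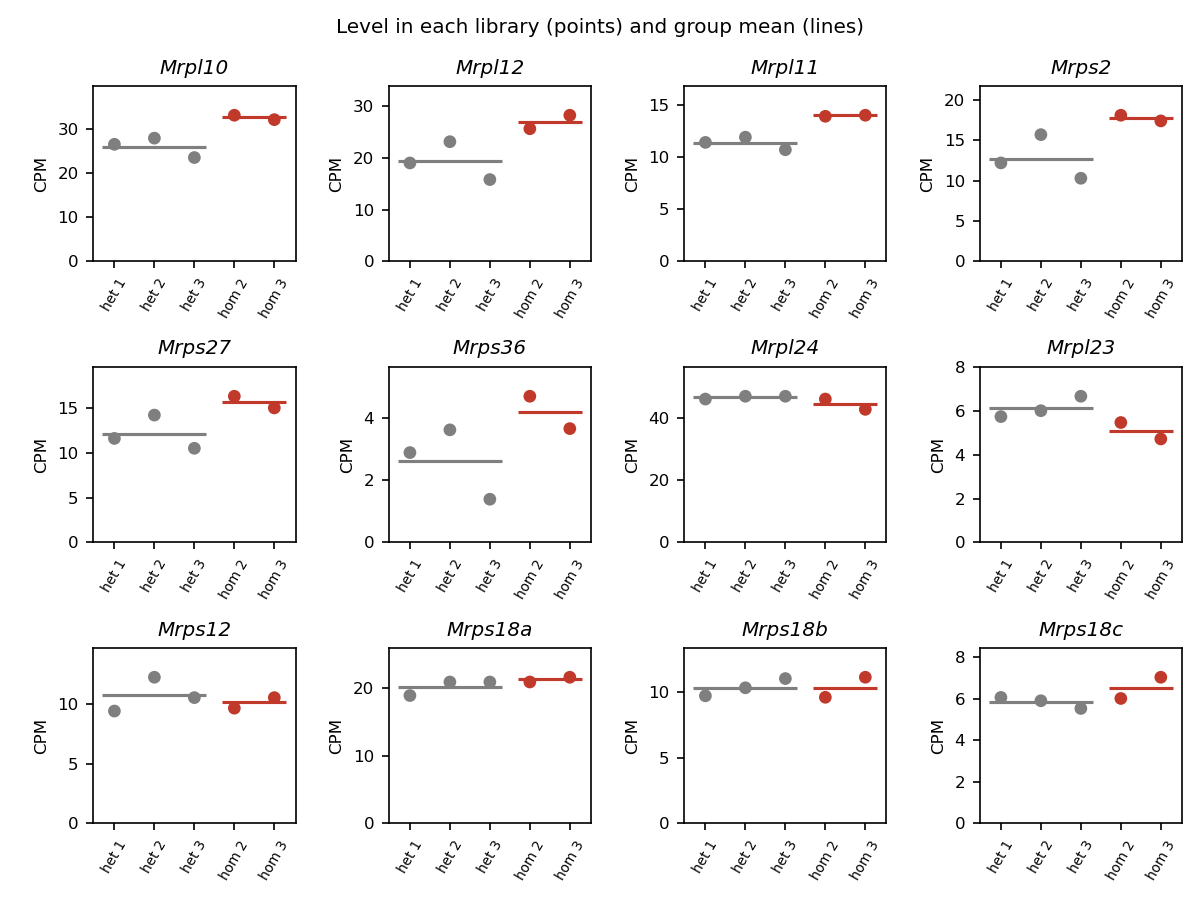
CPM of 12 members in each library, with heterozygous replicates 1 to 3 in grey (het) and homozygous replicates 2 and 3 in red (hom), and lines at the group means. Mrpl10, Mrpl11, Mrpl12, Mrps2 and Mrps27 have all red points above all grey ones, while Mrpl24, Mrps12, Mrps18b and Mrps18c have overlapping groups.

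The members with the lowest fold changes did not pass the test either. Mrpl23 was at 5.75, 6.02 and 6.68 CPM against 5.48 and 4.73 CPM (log2 fold change -0.27, SE 0.163, edgeR adjusted p = 0.483). Mrpl48 was at 25.8, 22.7 and 23.9 CPM against 22.0 and 21.3 CPM, or -0.16 (SE 0.101, edgeR adjusted p = 0.508). These were the 2 members whose homozygous libraries were both below the heterozygous ones. Mrpl33 gave -0.08 (SE 0.114) and 3 small-subunit genes also lay just under 0, namely Mrps12, which contacts the decoding centre, at -0.09 (SE 0.15), Mrps10 at -0.03 (SE 0.0953) and Mrps6 at -0.02 (SE 0.159). Of these 6 genes, Mrpl33, Mrps10, Mrps12 and Mrps6 turned positive under at least 1 other setting.

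Other members of known role, listed for that role and not for their values, had small estimates. Mrpl3 was at 28.9, 34.4 and 32.5 CPM against 31.6 and 34.5 CPM (log2 fold change 0.05, SE 0.109). Mrpl44, a protein with an RNase III fold, gave 0.05 (SE 0.14), Mrps7 0.18 (SE 0.123), Mrps16 0.19 (SE 0.194) and Mrps34 0.19 (SE 0.161). The 2 groups overlapped in Mrpl3, Mrpl44, Mrps16 and Mrps34, and also in Mrps7, in which heterozygous replicate 2 (26 CPM) lay between the homozygous libraries (26.6 and 25.3 CPM). Mrps34 shares 77.8% of its exon bases with other genes. Mrpl58, a ribosome-bound peptidyl-tRNA hydrolase that rescues stalled ribosomes, gave 0.12 (SE 0.121). The edgeR adjusted p of these 6 genes ran from 0.547 to 0.908.

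The 3 relatives of bacterial protein S18 are an uncommon case, since Mrps18a is known to sit in the large subunit despite its symbol, as does Mrps30, while Mrps18b and Mrps18c sit in the small one. Mrps18a was at 18.9, 20.9 and 20.9 CPM against 20.9 and 21.6 CPM. Mrps18b was at 9.69, 10.3 and 11 CPM against 9.58 and 11.1 CPM, and Mrps18c at 6.06, 5.90 and 5.53 CPM against 6.01 and 7.03 CPM. Their log2 fold changes were 0.07 (SE 0.1), 0.00 (SE 0.132) and 0.16 (SE 0.154), the first 2 no larger than their SE, with edgeR adjusted p from 0.664 to 0.995. Mrps30 gave 0.04 (SE 0.106). With Mrps18a and Mrps30 counted with the large subunit and Mrps36 left out, the median was 0.143 in the large and 0.160 in the small subunit.

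Levels per length of exon differed far more between members than between genotypes. Over the 77 members the mean over libraries ran from 1.17 CPM per kilobase of exon (Mrpl23) to 20.4 (Mrpl34), with a median of 6.88 in the large and 4.95 in the small subunit. The highest of the large subunit were Mrpl34, Mrpl24, Mrpl10 and Mrpl18, and of the small subunit Mrps21, Mrps28, Mrps23 and Mrps7. Exon length here merges the exons of all annotated transcripts of a gene (4883 bases in Mrpl23, 607 in Mrpl34). It can exceed the length of a single messenger RNA, so these ranks depend on the annotation. Without scaling to length, the mean over libraries ran from 2.27 to 45.7 CPM. Mrpl24, the member with the most counts, was at 46.0, 46.9 and 46.9 CPM against 46.0 and 42.7 CPM (log2 fold change -0.07, SE 0.0847). Mrpl34 was at 10.0, 13.9 and 8.95 CPM against 15.9 and 13.3 CPM, or 0.41 (SE 0.202), and Mrpl18 gave 0.13 (SE 0.166). Mrps28 gave 0.18 (SE 0.124) and Mrps21 0.16 (SE 0.199). Of these 8 members, 7 had values above 0 and Mrpl24 one below, and none passed the test.

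Mrpl53 was the 1 member that could not be tested, with a count of 0 in all 5 libraries, which allows up to 0.0874 to 0.115 CPM per library (3 counts of each total, counting error only). In GENCODE M21, 88.0% of its exon bases overlap Gm42688 on the same strand, a gene that held 50 to 78 counts. The part of this overlap in the count of 0 was not tested. Over all members, 25 share more than 5% of their exon bases with another gene and 20 share more than 5% of their 100-base words with those of another gene's transcripts. The 49 members under 5% on both measures had the same median log2 fold change, 0.16, with 42 above 0 (85.7%, against 47.2% of all genes) and 18 with groups not overlapping on the higher side (36.7%, against 17.4%).

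Median values differed little by ancestry of the protein. Members with a bacterial homologue (47 tested) had a median log2 fold change of 0.16 and mitochondria-specific members (29 tested) 0.18, and Mrpl55 was left unclassed. Within the small subunit the medians were 0.16 over 18 and 0.19 over 11 genes, and within the large subunit 0.16 over 29 and 0.16 over 18. Groups did not overlap on the higher side in 16 of the 47 (34%) and in 12 of the 29 (41.4%), against 17.4% of all genes. In the small subunit these shares were 27.8% of bacterial homologues and 54.5% of mitochondria-specific members, and in the large subunit 37.9% and 33.3%. The mitochondria-specific class includes Mrps36, and no difference between classes was tested.

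Among 5 proteins of the mitochondrial ribosome that carry other symbols, 4 had values below the members' median of 0.16 and Ptcd3 one above it. Dap3, a GTP-binding protein of the small subunit, gave 0.10 (SE 0.0908), and Ptcd3, a small-subunit pentatricopeptide repeat protein, 0.22 (SE 0.0926, edgeR adjusted p = 0.313) from 40.0, 40.6 and 45.2 CPM against 48.8 and 49.0 CPM. Chchd1 gave 0.07 and Aurkaip1 0.06, both with overlapping groups. Gadd45gip1 of the large subunit gave -0.08 (SE 0.168). With these 5 genes added, the median was 0.146 in the large and 0.152 in the small subunit.

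Genes that build and serve the mitochondrial ribosome were described from lists written for this work. Of 22 assembly factors (GTPases, RNA helicases and rRNA-modifying enzymes) 0 passed edgeR's test, and the median log2 fold change was 0.05. At an unadjusted p under 0.05 there were 0 of them, against 15.8% of all genes in either direction. Nsun4, an rRNA methyltransferase, gave 0.26 (SE 0.116), Mrm2, another, 0.33 (SE 0.206), and Dhx30, an RNA helicase and the most abundant of them, -0.12 (SE 0.0848). Of 15 translation factors and their partners 0 passed, and the median was 0.15. At an unadjusted p under 0.05, 5 of them were higher (33.3%, against 9.04% of all genes) and 1 was lower (6.67%, against 6.75%). Taco1, a translational activator of a cytochrome oxidase subunit, was at 6.30, 6.70 and 4.14 CPM against 9.26 and 9.12 CPM (log2 fold change 0.68, SE 0.217, edgeR adjusted p = 0.211). The elongation factors Tufm and Gfm1 gave 0.44 (SE 0.179) and 0.37 (SE 0.141), and Lrpprc, which stabilises mitochondrial messenger RNA, 0.23 (SE 0.102). Pdf, the deformylase of newly made proteins, gave -0.90 (SE 0.316, edgeR adjusted p = 0.242) at under 1 CPM in every library.

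Genes that charge mitochondrial transfer RNA and those that express mitochondrial DNA had medians nearer 0, and the difference from the members was not tested. Of 17 mitochondrial aminoacyl-tRNA synthetases 0 passed edgeR's test, and the median log2 fold change was 0.06. At an unadjusted p under 0.05 there were 0 of them, against 15.8% of all genes in either direction. The most abundant, Iars2, gave 0.09 (SE 0.0887), Sars2 0.36 (SE 0.163) and Mars2 -0.27 (SE 0.12). Of 10 genes that replicate or transcribe mitochondrial DNA 0 passed, 1 was higher at an unadjusted p under 0.05 (10.0%, against 9.04% of all genes), and the median was 0.03. That gene, Tfb2m, a transcription factor of mitochondrial DNA, was at 9.69, 9.58 and 8.35 CPM against 11.8 and 11.7 CPM (log2 fold change 0.35, SE 0.126, edgeR adjusted p = 0.252). Mterf2 gave 0.36 (SE 0.161) and Polg, the mitochondrial DNA polymerase and the most abundant of the list, -0.21 (SE 0.14).

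The RNAs of the mitochondrial ribosome had larger log2 fold changes than the median of the members, the genes of its proteins. The libraries were made by poly(A) selection, so counts of these RNAs are of the part captured and need not follow the amount of ribosomal RNA. mt-Rnr2 was at 26500, 30300 and 39800 CPM against 53200 and 50400 CPM (log2 fold change 0.69, SE 0.198, edgeR adjusted p = 0.18, DESeq2 adjusted p = 0.00696). mt-Rnr1 was at 3870, 4210 and 6110 CPM against 8260 and 6750 CPM, or 0.67 (SE 0.215, edgeR adjusted p = 0.214, DESeq2 adjusted p = 0.0357). All mitochondrially encoded genes, these 2 included, held 3.95%, 4.38% and 5.71% of counts against 7.95% and 7.36%. Whether the higher values are particular to the 2 RNAs was not tested. For each 1000 counts of the 2 RNAs there were 39.8, 38.4 and 24.7 counts of the member genes in heterozygous replicates 1, 2 and 3 and 21.7 and 23.9 in the homozygous libraries. Heterozygous replicate 3 thus lay with the homozygous libraries on this ratio. It had the highest CPM of the 2 RNAs and the lowest summed CPM of the members in its group.

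Nuclear genes of the respiratory chain and of the cytosolic ribosome stood on either side of the members. The 32 respiratory-chain genes are a list written with earlier results of these data known, and it does not hold every subunit. They had a median log2 fold change of 0.55, and in all 32 the groups did not overlap on the higher side, against 17.4% of all genes. edgeR called 0 of them and DESeq2 called 21 higher, against 3.68% of all genes. Cox5a, a cytochrome oxidase subunit, gave 0.92 (SE 0.204, edgeR adjusted p = 0.121), Uqcrc2, of the cytochrome bc1 complex, 0.69 (SE 0.154), and Atp5b, an ATP synthase subunit, 0.62 (SE 0.166). The 79 tested genes of cytosolic ribosomal proteins had a median of -0.25, with 71 not overlapping on the lower side (89.9%, against 18.2%). Of these 79 genes edgeR called 0 and DESeq2 called 12 lower, against 2.7% of all genes. Rpl4, the most abundant, was at 419, 400 and 404 CPM against 335 and 336 CPM. Rpl12 gave -0.35 (SE 0.0861, edgeR adjusted p = 0.14) and Rpl37a -0.38 (SE 0.0876, edgeR adjusted p = 0.129).

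**Figure D3:**
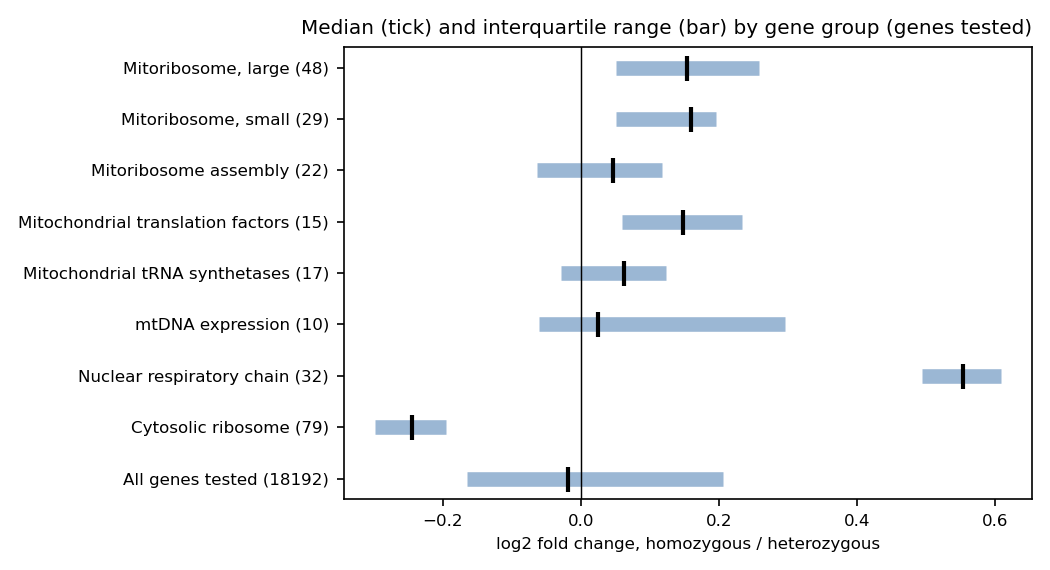
Median (tick) and interquartile range (bar) of the log2 fold change, homozygous over heterozygous, for gene groups, with the number of genes tested in brackets. The 2 mitochondrial ribosome bars lie just right of 0, between the cytosolic ribosome at a median of -0.25 and the listed respiratory-chain genes at 0.55.

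Summed over genes, the members made up 1209, 1324 and 1135 CPM in heterozygous replicates 1, 2 and 3 and 1331 and 1366 CPM in homozygous replicates 2 and 3. The groups do not overlap, but heterozygous replicate 2 lies next to homozygous replicate 2. The same sum was 36.0%, 30.6% and 37.1% of the sum of the listed respiratory-chain genes in the heterozygous libraries. In the homozygous libraries it was 24.8% and 25.7%. Set against the cytosolic ribosomal proteins it was 13.2%, 14.3% and 12.8% in the heterozygous and 17.3% and 18.2% in the homozygous libraries. Both proportions separate the groups, the first downward and the second upward.

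**Figure D4:**
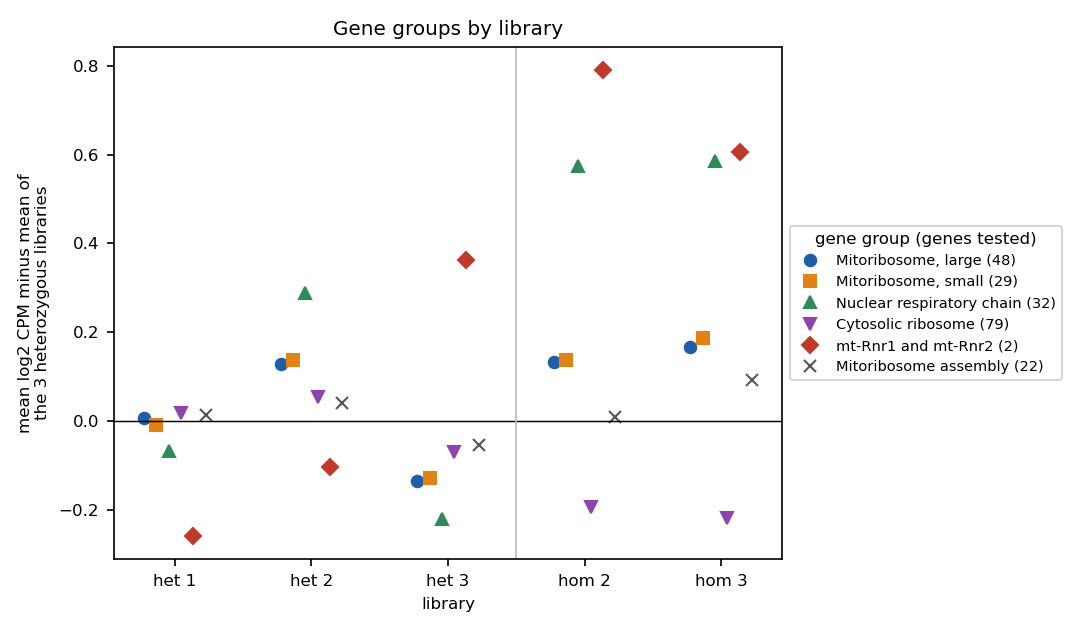
Mean log2 CPM of gene groups in each library, less the mean over the 3 heterozygous libraries (het 1 to 3; hom 2 and 3 are the homozygous replicates). The large and small subunits move as a pair in every library, low in heterozygous replicate 3 and about as high in heterozygous replicate 2 as in the homozygous libraries.

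The spread among heterozygous libraries was as large as the difference between groups. The mean log2 CPM of the members was 3.81, 3.94 and 3.67 in heterozygous replicates 1, 2 and 3 and 3.94 and 3.98 in homozygous replicates 2 and 3. Heterozygous replicate 3 was the lowest of the 5 libraries in 57 of the 77 members, 40 of 48 in the large and 17 of 29 in the small subunit. Heterozygous replicate 2 was the highest of the 5 in 16 members. Without heterozygous replicate 3 the medians were 0.10 in both subunits, and without heterozygous replicate 2 they were 0.25 (large) and 0.21 (small). Without heterozygous replicate 2, 56 members (72.7%) had homozygous libraries above all heterozygous ones, against 23.9% of all genes in that fit, where fewer libraries make separation easier. Without heterozygous replicate 3 the count was 34 (44.2%, against 25.9%).

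Summed markers of brown fat, fat, skeletal muscle and macrophages were above every heterozygous library in both homozygous libraries. Brown adipocyte markers (6 genes, 5 tested) summed to 185 to 522 CPM against 812 to 860 CPM, with Ucp1 at 152, 337 and 87.5 CPM against 582 and 569 CPM, and Zic1 at 0 in 3 libraries. Within the heterozygous group the order of that sum, from replicate 3 to 1 to 2, is the order of the members' sum. The smooth muscle, general adipocyte, endothelial, respiratory-chain and cytosolic ribosomal sums had this order too, while the sums of the other marker lists did not. Of these, the smooth muscle and cytosolic ribosomal sums were lower in the homozygous libraries. General adipocyte markers (6 of 6 detected in all libraries) summed to 938 to 1435 CPM against 1834 to 1948 CPM. Skeletal muscle markers (6 genes, Myh4 at 0 in heterozygous replicate 3) summed to 7.36 to 375 CPM against 667 to 1891 CPM, with the lowest sum again in heterozygous replicate 3. Macrophage markers (6 of 6 detected) summed to 212 to 279 CPM against 339 to 470 CPM. Cardiomyocyte markers (6 genes, Nppa at 0 in 3 libraries) summed to 12.9 to 22.1 CPM against 20.9 to 36.1 CPM, so the groups overlapped. Macrophage and cardiomyocyte sums were highest among the heterozygous libraries in replicate 3, where the members' sum was lowest. The most abundant marker was Fabp4 for adipocytes, Myh1 for skeletal muscle, Lyz2 for macrophages and Myh6 for cardiomyocytes. The part of these tissues in the members' values was not tested.

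Of the other marker lists, fibroblast and Schwann cell sums were also lowest in heterozygous replicate 3 and did not overlap between groups, on the higher side. Endothelial markers (6 of 6 detected) summed to 723 to 944 CPM in the heterozygous and was at 1081 and 379 CPM in homozygous replicates 2 and 3. Adventitial fibroblast markers (6 of 6) summed to 710 to 904 CPM against 926 to 973 CPM, and Schwann cell markers (5 of 5) to 19.7 to 36.7 CPM against 41.1 to 49.4 CPM. Taken singly, only 1 of the 6 fibroblast markers, Cd34, had groups not overlapping on the higher side, against 17.4% of all genes. All 6 had log2 fold changes above 0, from 0.025 in Pi16, the most abundant, to 0.407 in Lum. Of the 5 Schwann cell markers, 3 did not overlap on the higher side. Erythroid markers (5 of 5) summed to 37.9 to 297 CPM against 23.9 to 28.9 CPM. Lymphocyte markers (5 genes, Cd3d and Cd79a each at 0 in 1 library) summed to about 1 CPM or less in every library.

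A few members lie close to the targeted locus. Mrpl2, Mrps18a, Mrps10 and Mrpl14 lie within 2 Mb of Srf (chromosome 17, 46548329 to 46556175), at 95.9, 432, 823 and 860 kb. Their log2 fold changes were 0.17 (SE 0.131), 0.07 (SE 0.1), -0.03 (SE 0.0953) and 0.08 (SE 0.161), with a median of 0.07 and edgeR adjusted p from 0.581 to 0.916. Srf itself gave -0.59 (SE 0.122, edgeR adjusted p = 0.115).

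Many members start beside another gene that is read the other way, so that the pair may share a promoter. For 27 members a protein-coding gene that is no member started within 1000 bases on the opposite strand and was tested. The sign of the log2 fold change was the same in 11 of the 27 pairs, and the median was 0.15 over the members and -0.03 over their neighbours. Mrps12 and Sars2, which start 172 bases apart, gave -0.09 (SE 0.15) and 0.36 (SE 0.163). The neighbours with the lowest p were Wdfy1, beside Mrpl44, at -0.73 (SE 0.224, edgeR adjusted p = 0.2), and Ndufb5, a respiratory-chain gene beside Mrpl47, at 0.49 (SE 0.152, edgeR adjusted p = 0.204). Mrpl44 and Mrpl47 gave 0.05 and 0.21. The annotated starts overlap by 125 bases in the first pair and 615 bases in the second, so reads there may not have been told apart.

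Promoter sequence was examined because most members had values on the same side of 0. RefSeq windows on GRCm38.p6, from 250 bases before to 50 after the start of a gene, were found for 69 members by symbol. The motifs searched, on both strands, were GCGC followed by A, any base and GCGC for nuclear respiratory factor NRF1, CCGGAAG for ETS factors such as GABP, AANATGGCG for YY1, and the CArG box that serum response factor binds. These factors are known regulators of nuclear genes for mitochondrial proteins, except serum response factor. The following stretches run from 100 to 31 bases before the start, on the plus strand, with matches in capitals. Of the 7 members with an unadjusted p under 0.05, the 4 that hold a match in this stretch are shown. The other 3, Mrpl10, Mrpl11 and Mrps2, hold none in the whole window, and Mrps2 is shown as an example. They lie at chr11:120484537-120484606 (Mrpl12), chr1:37890377-37890446 (Mrpl30), chr6:125192100-125192169 (Mrpl51), chr13:99344686-99344755 (Mrps27) and chr2:28467966-28468035 (Mrps2). Capitals mark the NRF1 motif in Mrpl12 and Mrpl30 and the ETS motif in Mrpl51 and Mrps27.
Mrpl12: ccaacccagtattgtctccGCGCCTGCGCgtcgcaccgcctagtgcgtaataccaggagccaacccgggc
Mrpl30: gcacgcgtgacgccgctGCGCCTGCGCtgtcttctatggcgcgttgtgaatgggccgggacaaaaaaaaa
Mrpl51: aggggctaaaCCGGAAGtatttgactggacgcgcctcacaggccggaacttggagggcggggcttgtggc
Mrps27: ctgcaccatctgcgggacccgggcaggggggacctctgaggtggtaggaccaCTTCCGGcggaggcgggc
Mrps2: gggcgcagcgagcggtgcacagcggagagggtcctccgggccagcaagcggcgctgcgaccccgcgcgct

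Over whole windows, the ETS motif was in 34.7% of 75 member windows, against 8.86% of all 32851 windows. The NRF1 motif was in 17.3% against 4.6%, and the YY1 motif in 14.7% against 2.38%. The CArG box was in 0.0% of member windows against 1.63% of all. By subunit, the NRF1 motif was in the windows of 10 of 43 large-subunit and 3 of 26 small-subunit genes, and the ETS motif in 15 of 43 and 11 of 26. Differences between members with and without a motif were small and were not tested. Members with the NRF1 motif had a median log2 fold change of 0.14 (13 tested, 76.9% above 0) and those without it 0.16 (55 tested, 85.5%). For the ETS motif the medians were 0.12 (25 tested, 76.0% above 0) and 0.17 (43 tested, 88.4%). The 11 members with the YY1 motif had a median of 0.20, all above 0, against 0.15 over the 57 without it (80.7% above 0). A match is a description of these letters and not a binding site.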

How the data were processed

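The table analysed holds unnormalised whole-number counts, which the authors produced with fastp (0.20.0), STAR (2.7.0f) and the featureCounts program of Subread (1.6.4) against GRCm38, per the submitters' processing notes. No source used here gives the annotation release or strand setting. Each library came from 1 aorta, frozen separately, and was prepared by stranded poly(A) selection, per the labels.

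Low-count genes were dropped with filterByExpr and TMM factors computed. The remaining 18192 genes were fitted in edgeR 4.0.16 under R 4.3.3 with group as the sole term. P-values of its quasi-likelihood test were adjusted over all of these by Benjamini-Hochberg (threshold 0.05). The biological coefficient of variation was 15.8%, tests had 7.01 degrees of freedom, and p-values measure the spread between 5 mice. The script was tested on simulated data. DESeq2 1.42.0 and limma 3.58.1 were among the alternatives. The members and lists were chosen with earlier results of these data known. Genes named were, per subunit, the 8 lowest in p, the 4 most abundant per kilobase and the 3 lowest in fold change, with members of set role, the 2 lowest in p and the most abundant of each companion list, the most abundant of each marker list and the 2 neighbours lowest in p. Genes outside this rule, named after their values were seen, are Mrpl2, Mrpl14, Mrpl46, Mrpl47, Mrpl55, Tufm, Gfm1, Chchd1, Aurkaip1, Zic1, Myh4, Nppa, Cd3d and Cd79a. Positions, exon lengths and overlaps are from GENCODE M21, which matched all 78 members. Promoter windows are from RefSeq.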

Additional observations from a re-analysis of the deposited data

How the results depend on the processing

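Over the scalings, filters, tests and libraries left out, the medians of both subunits stayed above 0. When single libraries were left out, the members called stayed at 0, those above 0 ranged from 57 to 71, those not overlapping on the higher side from 32 (41.6%, against 24.3% of all genes) to 56 (72.7%, against 23.9%, without heterozygous replicate 2), and those at an unadjusted p under 0.05 from 0 (against 8.29% of all genes, without homozygous replicate 3) to 17 (22.1%, against 13.9%, without heterozygous replicate 2). The count at that p was 1, 4 and 3 (14.6%, 16.1% and 10.5% of all genes) without heterozygous replicate 1, heterozygous replicate 3 and homozygous replicate 2. The large-subunit median ranged from 0.099 to 0.247, the small from 0.085 to 0.208, and large minus small from -0.021 to -0.006. Leaving a homozygous library out assumes that the lone one varies like the others.

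With no low-count filter edgeR called 1 member, Mrpl12 (0.49), among the 3.23% of genes it then called higher, and 11 were at an unadjusted p under 0.05 (14.3%, against 12.3% of all genes). The log2 ratio of summed CPM gave 0.013 for large minus small in place of -0.014. Deviations from the group means had a correlation of -0.01 between libraries of replicate number 2 and -0.194 between those of number 3. With 2 homozygous libraries these deviations mirror each other, so the values cannot tell whether the replicate numbers pair the mice. With the replicate block 3 members were at an unadjusted p under 0.05 (3.9%, against 12.9%), with Mrpl3 at -0.020 and Mrps18b at -0.047. Fitting the sample descriptions' numbers as a term, whose contrast rests on homozygous replicate 2 against heterozygous replicate 3, gave 17 such members (22.1%, against 16.8%), a large-subunit median of 0.301, large minus small of -0.001, Mrpl3 at -0.042, Mrps18b at -0.202, Mrps30 at -0.0076 and Mrps6 at 0.050. In each case the cause was not tested.

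Signs of values near 0 turned as single libraries were left out. The range was -0.075 (without homozygous replicate 3) to 0.305 in Mrpl18, -0.018 to 0.120 in Mrpl3, -0.133 to 0.030 (without heterozygous replicate 3) in Mrpl33, -0.024 to 0.112 in Mrpl44 and -0.050 to 0.031 (without heterozygous replicate 3) in Mrps10. It was -0.173 to 0.037 (without heterozygous replicate 2) in Mrps12, -0.108 (without homozygous replicate 3) to 0.103 in Mrps18b, -0.025 to 0.104 in Mrps30 and -0.069 to 0.095 in Mrps6. Mrps6 was 0.0046 with upper-quartile factors and 0.0003 without mitochondrially encoded genes. Totals of 26177821 to 34311855 counts put 35 to 1580 counts on each tested member per library, with the fewest in Mrps33 and Mrps36.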
